A study of Rattus norvegicus with 24 samples.

Results

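Cyp24a1 (ENSRNOG00000013062) and Cyp27b1 (ENSRNOG00000046214) are the enzymes that break down and make active vitamin D in the kidney. Both were taken by their Ensembl identifiers from the RNA-seq count table, as 2 of its 32883 genes, and read in all 12 rats together with the ratio of their reads. The rats were females labelled 2 months of age, of the inbred Brown Norway (BN) or the outbred Sprague Dawley (CD) strain, either non-pregnant (NP) or at pregnancy day 18 (P18), with 3 rats in each of the groups CD-NP, CD-P18, BN-NP and BN-P18. The labels name no transgene and no treatment. The RNA came from whole kidney cross-sections holding cortex and medulla, so that proximal tubule, other nephron segments, vessels and resident leukocytes are averaged. The study used CD as a normal pregnancy and BN as one with placental insufficiency and preeclampsia-like signs, and asked how the kidney adapts in each.

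Vitamin D reaches the kidney as calcidiol, which Cyp27b1 in the mitochondria of proximal tubule cells converts to the hormone calcitriol. Cyp24a1, also mitochondrial, hydroxylates the side chain of calcitriol and calcidiol and so starts their breakdown. Calcitriol bound to the vitamin D receptor (Vdr) induces Cyp24a1 and represses Cyp27b1, parathyroid hormone induces Cyp27b1, and the bone hormone FGF23 represses Cyp27b1 and induces Cyp24a1, so the genes are commonly regulated in opposite directions.

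The region before the Cyp27b1 start is shown because the hormonal control of renal calcitriol synthesis acts in large part on transcription of this gene. RefSeq's table gave a window for 1 of the 2 genes, Cyp27b1, at chr7:64756376-64756675 on the plus strand of GRCr8, with 250 bases before and 50 after the start. It is printed in lower case with the matches to the searched motifs in capitals. The motifs, searched on both strands, were the box element CCAAT, the box element TATAA, the GC-rich element GGGCGG, the 6-letter receptor element AGGTCA, its variant GGGTCA, its variant AGTTCA, plus its variant GGTTCA.
Cyp27b1 promoter: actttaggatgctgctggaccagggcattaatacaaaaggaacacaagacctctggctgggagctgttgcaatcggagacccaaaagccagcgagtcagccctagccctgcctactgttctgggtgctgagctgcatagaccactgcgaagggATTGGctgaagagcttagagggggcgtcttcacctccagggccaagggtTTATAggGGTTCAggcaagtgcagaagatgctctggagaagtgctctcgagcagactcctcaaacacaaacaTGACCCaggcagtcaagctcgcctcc
CCAAT matched once, on the minus strand (printed ATTGG) from position -97, and 37.5% of all 33469 windows of this length hold it. TATAA matched once, on the minus strand (printed TTATA) from position -48, and is held by 26.2% of windows. The receptor elements matched at 2 places, GGTTCA on the plus strand from position -41 and GGGTCA on the minus strand (printed TGACCC) from position 24, and 44.4% of windows hold at least 1. GGGCGG, held by 33.1% of windows, was not among these letters, nor was a direct repeat of 2 receptor elements with 3 letters between them, which 0.0986% of windows hold. No capitals overlap. The window holds 6 CpGs, against a median of 7 over all windows.

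Gene counts summed to 8274159 to 11879451 reads in a library, and 14212 genes passed the filter on low counts, both enzymes among them. Cyp27b1 passed only through the BN-NP rats, at 31, 42 and 10 reads, since all 9 other libraries had 5 or fewer. A change was called at an edgeR adjusted p under 0.1 and a log2 fold change over 0.32 in either direction, the study's fold threshold, and a difference between the strains' changes at an adjusted p under 0.1. Calls of Cyp27b1 against BN-NP thus rest on a filter tied to the group where it was high. With no such filter edgeR kept them (adjusted p = 0.0274 with pregnancy in BN, 0.00663 between the strains before pregnancy). Levels are CPM, the reads of a gene scaled by TMM to a common library total, and they compare rats for 1 gene and not the 2 genes with each other, since no transcript lengths were used. Averaged over the 12 rats Cyp24a1 stood at 84.3 CPM, above 83.8% of tested genes, and Cyp27b1 at 1.06 CPM, above 3.69% of them. Tubule and podocyte markers were present, with the phosphate transporter Slc34a1 at 1618 to 2716 CPM and the slit-diaphragm gene Nphs1 at 76.0 to 114 CPM as group means.

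Cyp24a1 was low in every non-pregnant BN rat and high in every pregnant one. The BN-NP rats had 7.50, 8.88 and 7.48 CPM, from 69, 73 and 71 reads. The BN-P18 rats had 186, 165 and 141 CPM, from 1735, 1807 and 1330 reads. The groups did not overlap, and all 3 BN-NP rats also lay below each of the 6 CD rats. Shuffled labels separate 3 rats fully from 3 with a probability of 0.1. How many of all tested genes lacked overlap was not counted. In BN rats the level rose from 7.96 ± 0.805 CPM (SD, n = 3) to 164 ± 22.4 CPM, a log2 fold change of 4.37 ± 0.76 (SE) with a 95% interval of 2.73 to 6.01, which is 20.7-fold (edgeR quasi-likelihood, adjusted p = 0.0257). In a bulk sample, a change in the number of cells of a type and a change in RNA per cell cannot be told apart.

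Within CD rats Cyp24a1 varied more than it did between the stages. The CD-NP rats had 39.4, 29.9 and 169 CPM, and the CD-P18 rats 119, 121 and 17.1 CPM. CD-NP replicate 3 thus stood above all 3 pregnant CD rats, and CD-P18 replicate 3 below all 3 non-pregnant ones. The group means were 79.4 ± 77.7 and 85.6 ± 59.3 CPM (SD, n = 3), and the log2 fold change with pregnancy was 0.12 ± 0.60 (SE), with a 95% interval of -1.18 to 1.41 (edgeR adjusted p = 0.956). These samples therefore allow changes of either direction in CD rats. The sign turned when CD-NP replicate 1 or 2 or CD-P18 replicate 1 or 2 was left out (log2 fold changes of -0.20, -0.27, -0.20 and -0.20), and the value was 1.31 without CD-NP replicate 3, none of them past the threshold.

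The spread of Cyp24a1 was wider in both CD groups than in both BN groups. CD-NP replicate 3 and CD-P18 replicate 3 each stood far from their group mates. On the log2 CPM scale the SD of Cyp24a1 was 1.34 in CD-NP and 1.61 in CD-P18, wider than for 99.2% and 99.8% of tested genes in the same rats. It was 0.14 in BN-NP and 0.20 in BN-P18, wider than for 49.3% and 64.9% of tested genes. The highest CD rat was 5.66 times the lowest in CD-NP and 7.07 times in CD-P18, against 1.19 times in BN-NP and 1.32 times in BN-P18. The difference in spread was not tested. Reads were not scarce, as the lowest CD rat had 168 with an exact Poisson 95% interval of 144 to 195 (counting error only).

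The CD rats that stood apart in Cyp24a1 sat with their own group in 2 genes that separate the stages, chosen after their values were seen. The complement gene C7 was at 259.9, 245 and 223 CPM in CD-NP and at 899, 772 and 784 CPM in CD-P18, in the order of replicates 1 to 3. The interferon-response factor Irf9 was at 15.6, 12.8 and 14.2 CPM in CD-NP and at 34.7, 36.8 and 39.5 CPM in CD-P18. Replicate 3 of either group lay with its group mates in both genes. Both were picked for separating the labelled stages in these rats, so this is no check of the labels.

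**Figure D1:**
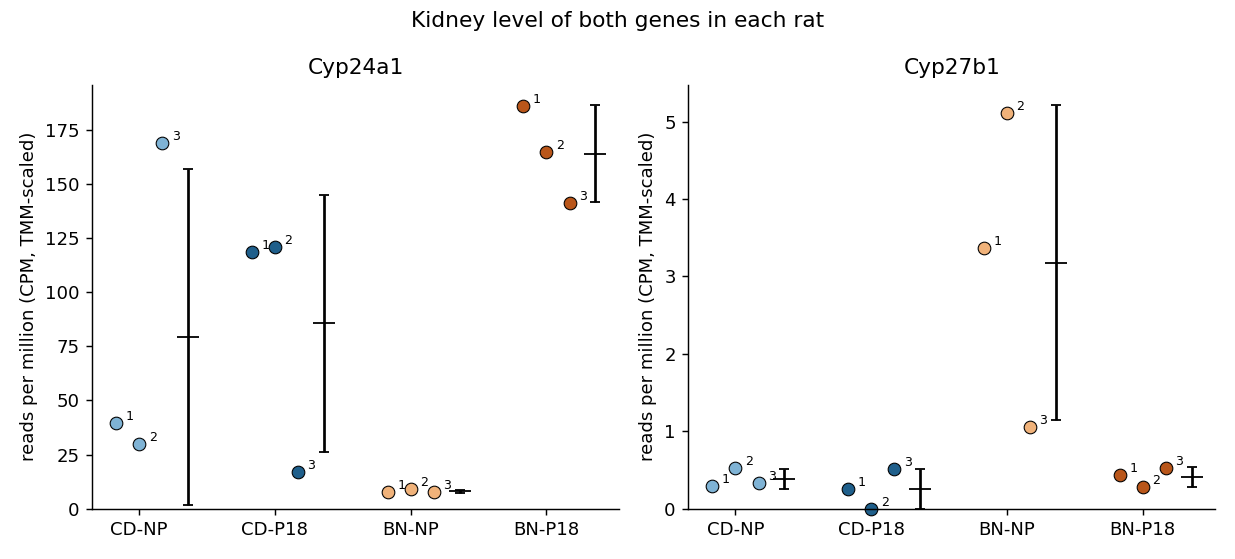
Level of Cyp24a1 (left) and Cyp27b1 (right) in each rat, in CPM on linear axes that differ between the genes; points are rats numbered by replicate, and the bar beside them is the mean ± SD of 3 rats. The BN-NP rats are lowest in Cyp24a1 (7.48 to 8.88 CPM) and highest in Cyp27b1 (1.05 to 5.11 CPM), and CD-NP replicate 3 and CD-P18 replicate 3 lie far from their group mates in Cyp24a1.

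Cyp27b1 moved the other way in BN rats. The BN-NP rats had 31, 42 and 10 reads, or 3.37, 5.11 and 1.05 CPM. The BN-P18 rats had 4, 3 and 5 reads, or 0.429, 0.273 and 0.531 CPM. The groups did not overlap, and BN-NP replicate 3 was the lowest of its group, with an exact Poisson interval of 4.80 to 18.4 reads against 21.1 to 44.0 and 30.3 to 56.8 reads in replicates 1 and 2 (counting error only). As for Cyp24a1, the share of all tested genes without overlap was not counted. With pregnancy Cyp27b1 fell by 2.90 on the log2 scale ± 0.62 (SE), with a 95% interval of -4.22 to -1.58, or 7.46-fold (edgeR adjusted p = 0.0513). From the summed reads, 12 against 83, the P18 level was 0.131 of the NP level with an exact 95% interval of 0.0651 to 0.241, which covers counting error only.

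In CD rats Cyp27b1 was near the lower limit of the counts at both stages. The CD-NP rats had 3, 5 and 3 reads and the CD-P18 rats 3, 0 and 5 reads. The exact Poisson 95% interval of the 0 reaches 3.69 reads, and 3 reads in that library would be 0.331 CPM. All 9 libraries outside BN-NP had 5 reads or fewer, and 5 of the 12 had 3 or fewer. The log2 fold change with pregnancy was -0.52 ± 1.08 (SE), with a 95% interval of -2.82 to 1.79 (edgeR adjusted p = 0.863). The summed reads, 8 against 11, gave a ratio of 0.689 with an exact interval of 0.241 to 1.88, which covers counting error only and not the spread between rats.

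Both enzymes were called with pregnancy in BN rats, where 1.44% of the 14212 tested genes were called, and neither in CD rats, where 4.71% were. Leaving out 1 rat could end the BN calls. Cyp24a1 was no longer called without BN-NP replicate 1 (adjusted p = 0.140) or BN-NP replicate 2 (0.117), and lost its call with robust dispersions (0.123), though its log2 fold change stayed between 4.27 and 4.47 over the 12 fits. For Cyp27b1 the call was lost without BN-NP replicate 1 (0.177) or 2 (0.215), without BN-P18 replicate 2 (0.227) or 3 (0.120), and in a fit of the 6 BN libraries alone (0.108).

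Before pregnancy the strains differed in both enzymes, in opposite directions. Cyp24a1 was 9.95-fold lower in BN-NP than in CD-NP, a log2 difference of -3.31 ± 0.77 (SE) with a 95% interval of -4.98 to -1.65 (edgeR adjusted p = 0.0234). Its size rested in part on CD-NP replicate 3, without which it was -2.13, and it stayed past the threshold in all 12 fits that left out a rat (adjusted p 0.00502 to 0.0852). Cyp27b1 was 7.92-fold higher in BN-NP, at 3.18 ± 2.04 against 0.382 ± 0.127 CPM (SD, n = 3), a log2 difference of 2.99 ± 0.63 (SE) with a 95% interval of 1.64 to 4.33 (edgeR adjusted p = 0.0116). It too was past the threshold in all 12 such fits (adjusted p 0.00135 to 0.0568), although Cyp27b1 entered the tests only through BN-NP. Of all tested genes 8.46% were called in this comparison.

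On day 18 neither enzyme was called between the strains, while 9.86% of all tested genes were. Cyp24a1 was at 141 to 186 CPM in BN-P18 and at 17.1 to 121 CPM in CD-P18, so that the 3 BN rats lay above the 3 CD rats. Here too the share of all tested genes without overlap was not counted. The log2 difference of Cyp24a1 was 0.94 ± 0.59 (SE), with a 95% interval of -0.34 to 2.21 (edgeR adjusted p = 0.397). Cyp27b1 was at 0.411 ± 0.130 CPM in BN-P18 and 0.256 ± 0.255 CPM in CD-P18 (SD, n = 3), a log2 difference of 0.60 ± 1.05 (SE) with a 95% interval of -1.65 to 2.86 (edgeR adjusted p = 0.796).

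The change of Cyp24a1 with pregnancy differed between the strains at the threshold used. The BN change exceeded the CD change by 4.25 ± 0.98 (SE) on the log2 scale, with a 95% interval of 2.15 to 6.36 (edgeR adjusted p = 0.0909), in a test that called 0.943% of all genes. That call was lost in 9 of the 12 fits that left out a rat, namely without CD-NP replicate 3, CD-P18 replicate 1 or 2, or any 1 of the 6 BN rats (adjusted p 0.105 to 0.237). Without CD-NP replicate 3 the difference was 3.06. For Cyp27b1 the BN change minus the CD change was -2.38 ± 1.38 (SE), with a 95% interval of -5.35 to 0.58 (edgeR adjusted p = 0.522), so its fall in BN rats was not shown to differ from the change in CD rats. The comparisons share groups and are not independent of each other.

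**Figure D2:**
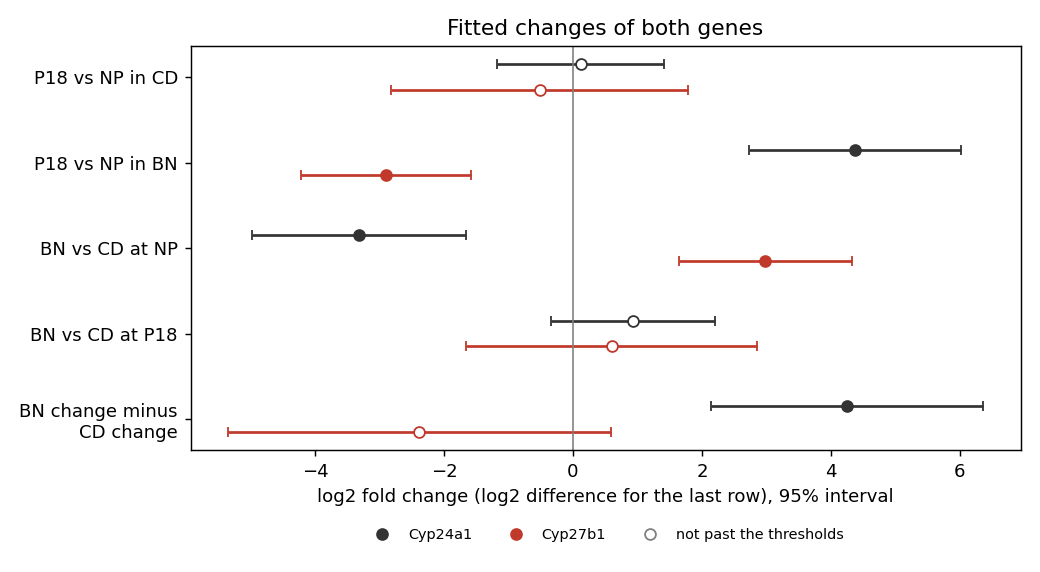
Log2 fold change of Cyp24a1 (black) and Cyp27b1 (red) in the 4 comparisons and, in the last row, the BN change minus the CD change; points are edgeR estimates from 12 rats with 95% intervals, and open points did not pass the thresholds. The enzymes point in opposite directions with pregnancy in BN rats (4.37 and -2.90) and between the strains before pregnancy (-3.31 and 2.99).

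**Figure D3:**
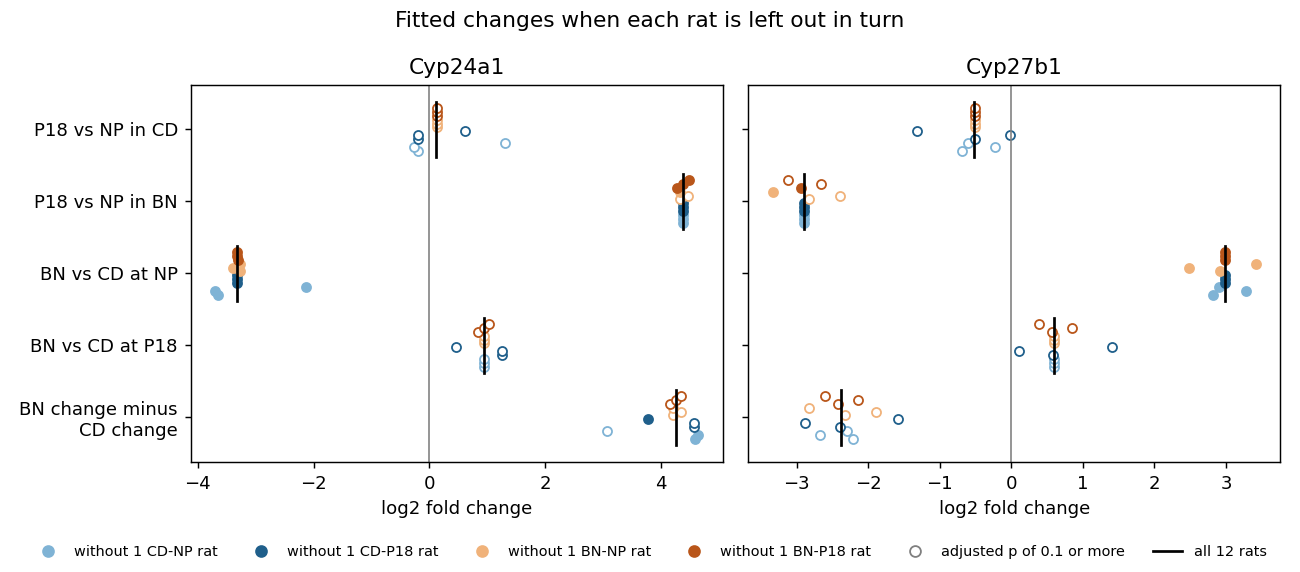
The same log2 values when each of the 12 rats was left out in turn, coloured by the group of the rat left out, with the value from all rats as a black line and open points at an adjusted p of 0.1 or more. Cyp24a1 in CD rats falls on both sides of 0 (-0.27 to 1.31), whereas its BN change stays between 4.27 and 4.47.

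In order of level, Cyp24a1 ran from BN-NP through CD-NP and CD-P18 to BN-P18. Of the neighbours in that order BN-NP differed from CD-NP past the threshold. CD-NP and CD-P18 were not called different, nor were CD-P18 and BN-P18. Every BN-P18 rat lay above every CD-P18 rat. Cyp27b1 ran from CD-P18 through CD-NP and BN-P18 to BN-NP. Here the first 3 groups overlapped, at 0 to 0.531 CPM, and each BN-NP rat lay above all of them. How many of all tested genes separate groups in these ways was not counted.

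The ratio of Cyp24a1 to Cyp27b1 reads summarises both enzymes within a rat, free of library depth and scaling, although it compares reads and not transcripts per length. The BN-NP rats had 2.23, 1.74 and 7.10 Cyp24a1 reads per Cyp27b1 read. The BN-P18 rats had 434, 602 and 266. The CD-NP rats had 136, 56.6 and 514. The CD-P18 rats had 461 and 33.6 in replicates 1 and 3. Replicate 2, with 1099 Cyp24a1 reads and no Cyp27b1 read, had no finite ratio, and its exact binomial 95% lower limit was 297. All 3 BN-NP rats lay below each of the other 9, and the other groups overlapped.

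Expressed as the Cyp24a1 share of the reads of both genes, the BN-NP rats had 69.0% (exact binomial 95% interval 59.0 to 77.9%), 63.5% (54.0 to 72.3%) and 87.7% (78.5 to 93.9%). In every other rat the share was 97.1% or more. The intervals cover counting error only.

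The spread of the ratio within a group was widest in CD-P18 and narrowest in BN-P18. With 0.5 reads added to both counts, the mean log2 ratio was 7.11 ± 1.56 (SD, n = 3) for CD-NP and 8.22 ± 3.10 for CD-P18. It was 1.57 ± 1.05 for BN-NP and 8.51 ± 0.55 for BN-P18. The highest rat was 8.54 times the lowest among CD-NP rats, 71.8 times among CD-P18, 3.94 times among BN-NP and 2.13 times among BN-P18 rats. In CD-P18 the highest was replicate 2, whose ratio of 2199 is set by the 0.5 reads added to its 0 Cyp27b1 reads. Replicates 1 and 3 stood at 396 and 30.6, so the SD and range of CD-P18 depend on that choice. Counting alone would give an SD of about 0.73, 1.31, 0.37 and 0.69 in the same order. The observed SD was thus below that of counting in BN-P18 and above it in the other 3 groups, a difference that was not tested.

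With pregnancy the mean log2 ratio was higher by 6.94 in BN rats, or 123-fold, with every P18 rat above every NP rat (two-sided exact permutation test, p = 0.1, adjusted p = 0.175 over 5 values). In CD rats it was higher by 1.11 with overlapping groups (exact permutation p = 0.7, adjusted p = 0.875), and without CD-P18 replicate 2 it was -0.33. Before pregnancy the ratio was lower in BN-NP than in CD-NP by a log2 difference of -5.54, or 46.7-fold, again without overlap (exact permutation p = 0.1, adjusted p = 0.175). On day 18 the strains differed by 0.28 (exact permutation p = 0.9, adjusted p = 0.9), a value that was -1.36 without CD-P18 replicate 3. The smallest p that 3 rats against 3 can give is 0.1, so no comparison of 2 groups could pass 0.05.

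The BN change of the ratio exceeded the CD change by 5.83 on the log2 scale (exact permutation test of stage labels within strains, 400 arrangements, p = 0.105, adjusted p = 0.175). This permutation test could have reached p = 0.005 and did not pass. Its shuffles assume no change with pregnancy in either strain, so it is not an exact test of equal changes. Without CD-P18 replicate 2, the rat with no Cyp27b1 read, the difference was 7.27 with an unadjusted exact permutation p of 0.04, and in the other 11 fits that left out a rat it ran from 4.19 (without CD-P18 replicate 3, p = 0.275) to 6.54 (without CD-NP replicate 2, p = 0.075), none of them under 0.05.

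**Figure D4:**
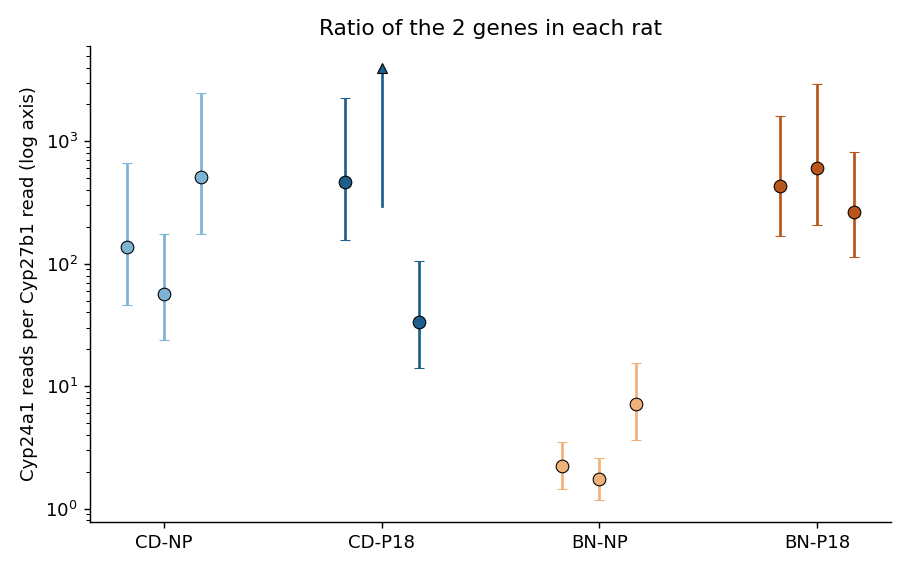
Cyp24a1 reads per Cyp27b1 read in each rat on a log axis, with exact binomial 95% intervals that cover counting error; the triangle marks CD-P18 replicate 2, which had no Cyp27b1 read and has only a lower limit. The BN-NP rats lie between 1.74 and 7.10, and every other rat at 33.6 or above.

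The rest of the pathway could be read only in part. Of the 59 other genes in 6 lists for vitamin D metabolism, transport, receptors, calcium, phosphate and pregnancy hormones, 17 could be tied to an identifier and tested. Those 17 were identified through the study's table of changed genes in these same rats, so the lists lean towards changed genes and their counts are no evidence about the pathway. Of the 17, 2 were called higher and 2 lower with pregnancy in CD rats, and 1 higher and 2 lower in BN rats. BN was called higher for 3 and lower for 0 before pregnancy, and higher for 2 and lower for 4 on day 18. Of all tested genes 4.71%, 1.44%, 8.46% and 9.86% were called in these 4 comparisons. The median log2 fold changes of the 17, called or not, were 0.08, -0.13, -0.06 and -0.17, against -0.01, 0.00, 0.00 and 0.00 over all tested genes. For none of the 17 was the BN change called different from the CD change by edgeR, where 7 had an unadjusted p under 0.05 and DESeq2 called 1.

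Among the enzymes, Cyp2r1, a hydroxylase that makes calcidiol, was higher in BN at both stages. It was at 19.6 ± 1.32 CPM in CD-NP and 28.2 ± 0.800 CPM in BN-NP (SD, n = 3), a log2 difference of 0.53 ± 0.12 (SE, edgeR adjusted p = 0.0227). On day 18 the CD rats had 15.4 ± 1.38 CPM and the BN rats 22.0 ± 4.03 CPM, a log2 difference of 0.52 (edgeR adjusted p = 0.0230). The strain difference in Cyp2r1 thus had about the same size before and during pregnancy, with a BN change minus CD change of -0.01 ± 0.18 (SE, adjusted p = 0.990).

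Vdr, the receptor of calcitriol, was not called in any comparison. It was at 224, 241 and 223 CPM in CD-NP, at 322, 265 and 218 CPM in CD-P18, at 206, 189 and 197 CPM in BN-NP and at 293, 222 and 268 CPM in BN-P18. Its log2 fold change with pregnancy was 0.23 ± 0.12 (SE) in CD rats and 0.40 ± 0.12 in BN rats (edgeR adjusted p = 0.370 and 0.204). CD-P18 replicate 3, the pregnant CD rat with the least Cyp24a1, also had the least Vdr of its group, but so did CD-NP replicate 3, the non-pregnant CD rat with the most Cyp24a1. Of the receptor's partners, the coactivator Ncoa3 and the cofactor Trim24 rose with pregnancy in CD rats by 0.33 and 0.43 on the log2 scale (edgeR adjusted p = 0.0917 and 0.0626), and their BN values were -0.13 and -0.06 (adjusted p = 0.720 and 0.918). The difference between the strains' changes was called for neither (adjusted p = 0.178 and 0.221).

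Genes that answer to parathyroid hormone and FGF23, or carry phosphate, were called with pregnancy in one strain or the other, and for none of those named here was the difference between the strains' changes called. Pth1r, the parathyroid hormone receptor, fell by 0.51 on the log2 scale with pregnancy in CD rats (edgeR adjusted p = 0.0147), from 271 ± 27.1 to 191 ± 5.54 CPM (SD, n = 3). Its BN value was -0.29 (adjusted p = 0.292), and the strains' changes were not shown to differ (adjusted p = 0.575). Slc34a1, the main phosphate transporter of the proximal tubule, fell by 0.47 in CD rats (adjusted p = 0.0833) and had a BN value of -0.35 (adjusted p = 0.353; difference of the changes, 0.863). Slc34a3, the second such transporter, fell by 0.86 in BN rats (adjusted p = 0.0275), from 96.4 ± 6.99 to 53.3 ± 9.06 CPM, and had a CD value of -0.30 (adjusted p = 0.337; difference of the changes, 0.2997).

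Dusp6, a phosphatase induced by ERK signalling such as that of fibroblast growth factors, rose with pregnancy in BN rats. Its levels were 34.4, 27.3 and 32.2 CPM in BN-NP and at 68.7, 55.4 and 38.9 CPM in BN-P18, a log2 fold change of 0.79 ± 0.17 (SE, edgeR adjusted p = 0.0563). Its CD value was 0.36 (adjusted p = 0.293), and the difference between the strains' changes was not called (adjusted p = 0.501). On day 18 the FGF receptor Fgfr4 and the scaffold protein Slc9a3r1, which anchors phosphate transporters, were lower in BN by 0.33 and 0.40 on the log2 scale (log2 differences of -0.33 and -0.40, adjusted p = 0.0209 and 0.00828). The calcium pump Atp2b4 was lower in BN on day 18 as well (log2 difference of -0.37, adjusted p = 0.0114), and the calcium channel Trpv5 was not called in any comparison (group means of 13.4 to 17.9 CPM).

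Of the 6 listed hormone receptors 3 had an identifier, and each was called between the strains at one stage or both. Of all tested genes 8.46% were called between the strains before pregnancy and 9.86% on day 18. The 3 were identified through the study's table of changed genes, so their calls are no evidence about such receptors as a group. Prlr, the receptor of prolactin and placental lactogens, was at 17.7 ± 1.85 CPM in CD-NP and 27.4 ± 2.60 CPM in BN-NP (SD, n = 3), a log2 difference of 0.64 (edgeR adjusted p = 0.00984), and the difference was 0.74 on day 18 (adjusted p = 0.00290). Ghr, the growth hormone receptor, fell by 0.39 on the log2 scale with pregnancy in BN rats (adjusted p = 0.0666), with a CD value of 0.10 and no called difference between the changes (adjusted p = 0.114), and was lower in BN on day 18 (log2 difference of -0.53, adjusted p = 0.00203), with a value of -0.04 before pregnancy (adjusted p = 0.830). Igf1r, the receptor of insulin-like growth factor, was higher in BN before pregnancy (log2 difference of 0.34, adjusted p = 0.00664), with a value of 0.08 on day 18 (adjusted p = 0.501).

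**Figure D5:**
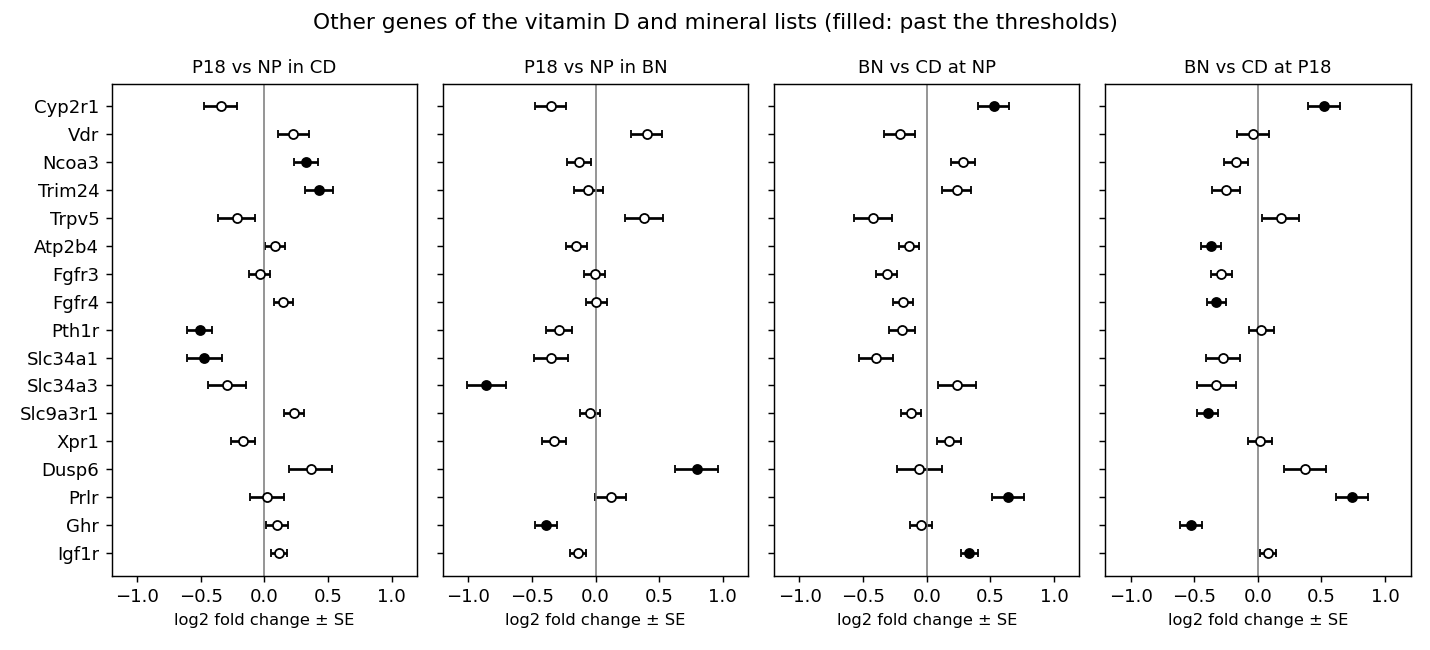
Log2 fold change ± SE of the 17 other list genes with an identifier, in the 4 comparisons; filled points passed the thresholds. The largest values are those of Slc34a3 (-0.86) and Dusp6 (0.79) with pregnancy in BN rats and of Prlr between the strains (0.64 and 0.74), all smaller than the changes of Cyp24a1 and Cyp27b1 in BN rats.

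Some cell type markers moved with the same comparisons. Their identifiers too came from the study's table of changed genes in these rats. The markers read here therefore lean towards changed genes, and their calls and sums are no evidence of a shift in cell types. The summed level of the 3 proximal tubule markers with an identifier, of 9 listed, was 2866 to 3676 CPM in CD-NP, 2129 to 2754 CPM in CD-P18, 2407 to 2969 CPM in BN-NP and 1859 to 2499 CPM in BN-P18. Most of this sum was Slc34a1. Of the other proximal tubule markers, the glucose transporter Slc5a2 fell by 0.64 on the log2 scale with pregnancy in BN rats (edgeR adjusted p = 0.0736), where both enzymes were called, and was lower in BN on day 18 (log2 difference of -0.74, adjusted p = 0.00766), and the organic anion transporter Slc22a6 was higher in BN before pregnancy (log2 difference of 0.59, adjusted p = 0.0291). The 3 of 6 macrophage markers summed to 69.9 to 84.3 CPM in CD-NP and 91.5 to 119 CPM in CD-P18, and to 69.1 to 74.0 CPM in BN-NP and 92.6 to 96.6 CPM in BN-P18. All 3 were called higher with pregnancy in CD rats, and C1qa in BN rats too (log2 fold change of 0.67, adjusted p = 0.0802). Of all tested genes 4.71% were called with pregnancy in CD rats and 1.44% in BN rats. The 2 of 4 distal tubule markers summed to 829 to 897 CPM in CD-NP, 618 to 657 CPM in CD-P18, 681 to 839 CPM in BN-NP and 777 to 870 CPM in BN-P18. One of them, the sodium chloride transporter Slc12a3, fell by 0.44 on the log2 scale with pregnancy in CD rats (adjusted p = 0.0116) and was higher in BN on day 18 (log2 difference of 0.35, adjusted p = 0.0197), and, as for Cyp24a1, its BN change was called different from its CD change (0.54, adjusted p = 0.0664). The 2 of 4 collecting duct markers summed to 259 to 397 CPM in CD-NP and 225 to 245 CPM in BN-NP, and both Scnn1g and Atp6v1b1 were called lower in BN-NP (log2 differences of -0.44 and -0.46, adjusted p = 0.00291 and 0.0537), where 8.46% of all tested genes were called. On day 18 these sums were 263 to 275 CPM in CD rats and 249 to 256 CPM in BN rats. The 3 podocyte markers ran from 545 to 887 CPM over all rats, and Nphs1 fell by 0.58 on the log2 scale with pregnancy in CD rats (adjusted p = 0.0626). The part of these markers in the enzymes' changes was not tested, and the thick ascending limb and adrenal lists held no gene with an identifier.

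Genes whose levels followed each enzyme most closely were named by the Pearson correlation of log2 CPM over the 12 rats, as a description. The 12 points share groups, so a gene that differs between the same groups correlates for that reason alone. Cyp24a1 was followed most closely by Thumpd3 (r = 0.93, Spearman's rho = 0.85), the amino acid carrier-family gene Slc7a4 (r = 0.90, rho = 0.92) and the transcription factor gene Etv5 (r = 0.86, rho = 0.85), beside 2 genes with no symbol. Etv5, like Dusp6 a known target of ERK signalling, was at 15.4, 12.5 and 11.9 CPM in BN-NP and at 34.2, 24.2 and 27.6 CPM in BN-P18, a rise of 1.10 ± 0.22 (SE) on the log2 scale (edgeR adjusted p = 0.0439). In CD rats it was at 15.5, 19.7 and 27.3 CPM in CD-NP and at 33.1, 21.4 and 22.4 CPM in CD-P18, so that CD-NP replicate 3 was the highest of its group in Etv5 as in Cyp24a1. In CD-P18 the lowest Etv5 was in replicate 2, the rat with the most Cyp24a1 of that group.

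The genes running most nearly opposite to Cyp24a1 were Mettl7b (r = -0.91, rho = -0.83), Socs7 (r = -0.88, rho = -0.74) and the Mediator subunit gene Med4 (r = -0.87, rho = -0.78), beside 2 with no symbol. Mettl7b fell by 0.65 on the log2 scale with pregnancy in BN rats (edgeR adjusted p = 0.0338). Cyp27b1 was followed by RGD1305733 (r = 0.92, rho = 0.85) and the mitochondrial ornithine carrier Slc25a15 (r = 0.91, rho = 0.68), beside 2 with no symbol. Both named genes fell with pregnancy in BN rats by 0.80 and 0.51 on the log2 scale (edgeR adjusted p = 0.0401 and 0.0936), and were higher in BN-NP than in CD-NP. Running opposite to Cyp27b1 were the transcription factor gene Srf (r = -0.93, rho = -0.76) and 4 genes with no symbol.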

How the data were processed

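Kidney RNA-seq libraries of 12 rats, 3 per group, were assigned to groups from their labels. The authors trimmed single-end reads with Trimmomatic, aligned them to Rnor_6.0 with STAR 2.5.2, counted them with HTSeq 0.6.1 (versions from the submitters' processing notes) and deposited raw counts per gene. Whether strand was used in counting is not given in the sources used here. Summary lines of the counter, 72.5 to 75.6% of entries per library, were left out.

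Genes kept by filterByExpr (minimum count 10) were tested with edgeR 4.0.16 in R 4.3.3 (TMM, 1 quasi-likelihood fit of 4 groups, Benjamini-Hochberg). Standard errors came from the F statistic, and log2 CPM used a prior count of 2. Ratios were tested by exact permutation. DESeq2 1.42.0, other scalings, filters and dispersions, a replicate block and leaving out each rat were alternatives. The fit was tested on simulated data.

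The deposited table holds identifiers without symbols. Symbols were tied to identifiers by matching fold changes and mean levels with the study's gene table, which paired 2986 of 3064 symbols, including both enzymes, within 0.01 on the log2 scale. Its values were not otherwise used. Both enzymes, the lists and the tests were chosen with earlier results of these data known. Named list genes are those called in any comparison, plus fixed regulators and transporters where identified (Vdr, Cyp2r1, Pth1r, Trpv5, Slc34a1, Slc34a3), and for each enzyme the 5 most and 5 least correlated genes, of which 1 is not reported here. Replicate pairs differed by more than counting noise (chi-square per degree of freedom 5.16 to 12.2 over 12 pairs). Bisulfite libraries were not used here, since no gene positions in Rnor_6.0 were given.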

Additional observations from a re-analysis of the deposited data

Results flagged for a closer look

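Cyp24a1 was singled out because its change with pregnancy differed between the strains by a test of the difference itself: the log2 change in BN rats minus that in CD rats was 4.25 (edgeR adjusted p = 0.0909). All 3 BN-P18 rats lay above all 3 BN-NP rats, while CD-NP and CD-P18 rats overlapped. The share of all tested genes with such a separation was not counted.
The distal tubule transporter Slc12a3 met the same test, with a BN change minus CD change of 0.54 on the log2 scale (edgeR adjusted p = 0.0664).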

How the results depend on the processing

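Over scaling, filter, dispersion, tool, library set and block, both enzymes kept their direction in all comparisons. Calls were lost for Cyp24a1 with robust dispersions (P18 minus NP in BN, log2 4.37; BN change minus CD change, 4.25), with the replicate block (BN change minus CD change, 4.20, adjusted p = 0.113) and with an adjusted p under 0.05 and fold over 1.5 (BN change minus CD change, 4.25), and for Cyp27b1 in BN rats with the 6 BN libraries alone (-2.90) and under the stricter thresholds (-2.90). The replicate block moved the count of list genes whose change differed between the strains from 0 to 1. Same-numbered rats share only a number: correlations of their deviations ran from -0.19 to 0.27, and the block changed no other call of either enzyme.

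With each rat left out, log2 values ran from 4.27 to 4.47 for Cyp24a1 and -3.33 to -2.40 for Cyp27b1 with pregnancy in BN, -0.27 to 1.31 for Cyp24a1 in CD, and 3.06 to 4.64 for the BN minus CD change of Cyp24a1. The log2 ratio ran from -0.33 to 2.75 for pregnancy in CD, -1.36 to 1.72 between strains on day 18 and 4.19 to 7.27 for the difference of changes. List genes called ran from 1 to 4 (pregnancy in CD), 0 to 4 (in BN), 2 to 5 (strains at NP) and 0 to 1 (difference of changes). The cause was not tested.

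Cyp27b1 was not testable at 1 CPM or more in all libraries, nor in the 6-library fits of CD rats and of day 18, and DESeq2 gave no adjusted p for its difference of changes. The planned methylation alternatives were not run. Depth limits Cyp27b1, with 5 reads or fewer outside BN-NP.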
